A study of Homo sapiens with 12 samples.

Results

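The comparison is of 3 samples of MDA-PCa-2b cells labelled KD1 with 3 samples labelled NT, which are 6 of the 12 samples of the series. The samples were chosen by their titles, and the remaining samples are 3 labelled KD2 and 3 labelled KDR. MDA-PCa-2b is an androgen-responsive human prostate cancer line derived from a bone metastasis, and every sample carries that line's name as its source, although the culture text also names the sister line MDA-PCa-2a. The titles name the gene DHODH. The labels do not spell out NT, do not give the kind of knockdown construct or the time after it, and do not say whether replicates were separate cultures, so p-values measure only the spread between these samples, which may be technical. Total RNA was selected for poly-A tails and sequenced in pairs. Each sample has 1 table of raw counts per gene, with 23786288 to 38240369 counts per sample. No batch or date is given in the labels.

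DHODH, dihydroorotate dehydrogenase, sits in the inner mitochondrial membrane and oxidises dihydroorotate to orotate, the step of de novo pyrimidine synthesis that passes electrons to ubiquinone. CAD carries out the steps before it and UMPS the steps after it, and the uridine phosphates that result feed RNA, DNA, lipid and sugar-nucleotide synthesis. Luminal prostate cells depend on androgens and on the factors FOXA1 and HOXB13 for the expression of secreted proteases such as KLK3, the prostate-specific antigen.

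DHODH, the gene named in the titles (chromosome 16, 72008588 to 72027664 on the plus strand, GRCh38), was counted at 9.19, 13.4 and 8.95 CPM in NT replicates 1 to 3 and 10.97, 10.4 and 9.63 in KD1 replicates 1 to 3. CPM are counts divided by library size after edgeR's TMM scaling. The highest sample was NT replicate 2, and the groups overlapped. The fitted log2 difference of KD1 from NT was -0.03 (95% interval -0.33 to 0.27), with an adjusted p of 0.974 in edgeR's quasi-likelihood test. Without NT replicate 2 the sign turned, to 0.19 (-0.08 to 0.46), with an adjusted p of 0.93 in the same test. A 2-fold fall lies outside both intervals. DHODH RNA was thus not measurably lower in the samples labelled KD1, and directions below refer to the labels. The KD2 samples held 11.4, 13.02 and 14.9 CPM of DHODH, and the fitted difference of KD2 from KD1 was 0.34 ± 0.14 (SE, log2; adjusted p = 0.0698 by edgeR).

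The promoters of KLK3, of its neighbour KLK2 and of EGR1, the most abundant immediate early gene, are shown because KLK3 and EGR1 head the androgen-regulated and stimulus-regulated parts of the profile described next. Each line gives the 250 bases before the annotated start on the plus strand, from the RefSeq table of GRCh38.p14, at chr19:50854665-50854914 for KLK3, chr19:50873189-50873438 for KLK2 and chr5:138465229-138465478 for EGR1. Capitals mark AGAACA (or TGTTCT on the other strand), the 6 letters of an androgen response half-site, in KLK3, and in EGR1 the CArG box of serum response elements, CC and GG around 6 letters that are each A or T, which reads alike on both strands.
KLK3: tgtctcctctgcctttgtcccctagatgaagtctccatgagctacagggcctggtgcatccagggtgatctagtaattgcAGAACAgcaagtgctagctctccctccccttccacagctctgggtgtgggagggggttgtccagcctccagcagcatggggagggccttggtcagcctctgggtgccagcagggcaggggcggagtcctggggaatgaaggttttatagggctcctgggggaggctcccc
KLK2: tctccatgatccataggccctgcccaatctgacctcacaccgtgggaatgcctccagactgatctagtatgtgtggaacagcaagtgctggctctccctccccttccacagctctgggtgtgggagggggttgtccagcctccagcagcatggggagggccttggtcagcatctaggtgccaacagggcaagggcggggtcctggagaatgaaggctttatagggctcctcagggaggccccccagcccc
EGR1: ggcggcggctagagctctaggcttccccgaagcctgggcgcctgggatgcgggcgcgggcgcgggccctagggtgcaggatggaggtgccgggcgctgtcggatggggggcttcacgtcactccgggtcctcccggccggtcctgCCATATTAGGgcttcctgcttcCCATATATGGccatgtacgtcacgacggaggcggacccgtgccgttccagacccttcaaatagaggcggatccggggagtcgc
The half-site letters start at -170 in KLK3, and 12.4% of 35116 promoter windows of this kind hold them. They are not an exact match in the KLK2 window, whose RefSeq start lies within the longer Ensembl gene. That window reads ggaaca, which differs by 1 letter, before the same gcaagtgct that follows the half-site in KLK3. A CArG box starts at -105 and another at -83 in EGR1, and 407 of the 35116 windows (1.16%) hold at least 1.

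The profile held in common by both groups is given over all 6 samples. In every one of them 14773 genes reached 1 TPM (counts per exon length, scaled to the same total in each sample), of which 11546 were protein-coding. A level of 100 TPM was reached by 1567 genes and 1000 TPM by 77. No count was recorded for 29072 genes, among them 3379 of 19855 protein-coding genes. Protein-coding genes held 97.2% to 97.3% of counts. The 10 highest genes of each sample held 4.96% to 5.87% of its counts and the 1000 highest held 47.0% to 48.5%.

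Of the 20 protein-coding genes with the highest mean TPM, 10 were encoded by the mitochondrial genome. MT-CO1, a core subunit of cytochrome oxidase, stood at 23151, 22439.9 and 18762 TPM in NT and 23553, 23412 and 23934 in KD1. NT replicate 3 was the lowest of the 6 and the other 5 lay close together. GDF15, a secreted stress-responsive cytokine of the TGF-beta superfamily (chromosome 19, 18374731 to 18389176), was the highest nuclear-encoded protein-coding gene by mean TPM. It stood at 9314, 10317 and 9728 TPM in NT and 9575, 9562 and 9462 in KD1. KLK3 (chromosome 19, 50854915 to 50860764) followed at 7436, 8595 and 7291 TPM in NT and 7377, 7196 and 7330.4 in KD1, and alone took 0.817% to 1.014% of counts. NT replicate 2 was the highest sample for both. S100P, a small calcium-binding protein, reached 7146, 7926 and 7961 TPM in NT and 7193, 6981 and 6592 in KD1. The elongation factors EEF2 (4300.4 ± 314) and EEF1A1 (3786 ± 174), the actin ACTG1 (3531 ± 166) and the ribosomal proteins RPS12 (2871 ± 196) and RPL8 (2786 ± 222) were also among the 20 (mean TPM ± SD, n = 6). TPM divide by exon length, so the order of genes depends on that length. By mean CPM, EEF1A1 (9725 in NT and 9089 in KD1) and KLK3 (8955 and 8334) lay above GDF15 (5064 and 4896). The 13 mitochondrial mRNAs summed to 93144 to 124162 TPM in NT and 123335 to 124337 TPM in KD1.

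**Figure D1:**
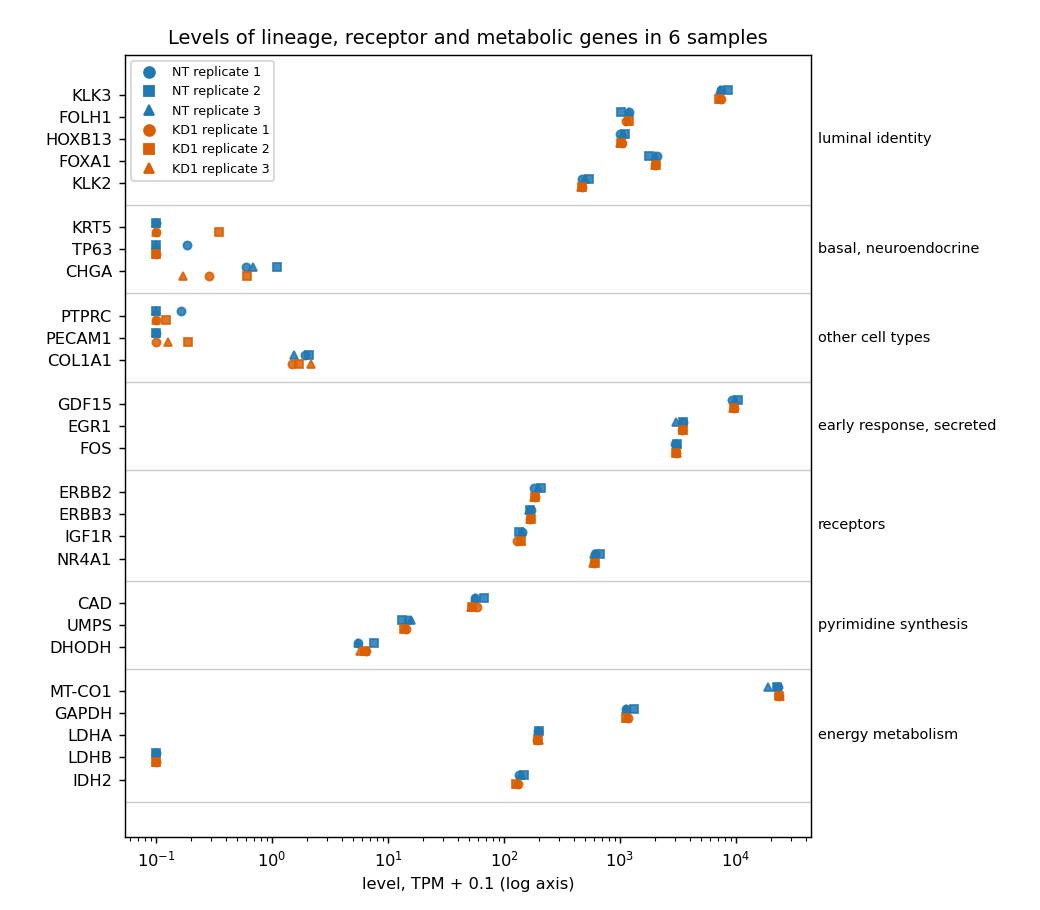
Levels by sample in TPM on a log axis, with a small constant added so that genes at 0 show at the left, and 1 point per sample of NT and KD1. The 6 points of each abundant gene, such as KLK3 and GDF15, lie nearly on top of each other on this scale, and NT replicate 3 is the low point of MT-CO1.

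The prostate luminal profile was present at high levels in every sample. Of 25 luminal identity genes 22 reached 1 TPM in all 6 samples, and their summed level was 20863 to 21963 TPM in NT and 20679.9 to 20766 TPM in KD1. SLC45A3, a prostate-enriched transporter, stood at 2243 ± 77.1 TPM (mean ± SD, n = 6 samples here and below). The lineage transcription factors were at 1989 ± 106 for FOXA1 and 1036 ± 46.3 for HOXB13. The androgen-regulated protease TMPRSS2 was at 1924 ± 32.6, KLK2 at 486 ± 30.9, the acid phosphatase ACP3 at 593 ± 35.3 and FOLH1, the prostate-specific membrane antigen, at 1145 ± 68.99. The log2 difference of KLK3 was -0.10 (95% interval -0.22 to 0.02), or 0.02 (-0.03 to 0.07) without NT replicate 2. None of the 22 tested luminal genes was called different by edgeR (adjusted p under 0.05), where 0% of all 19373 tested genes were called. At an unadjusted p under 0.05, 0 were higher and 1 lower, and the median log2 difference was -0.05, or 0.02 without NT replicate 2. Over all tested genes the median was -0.01.

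Epithelial structure genes were expressed as well. The tight-junction proteins CLDN4 (1649 ± 143) and CLDN3 (1289 ± 115) and the simple-epithelial keratins KRT19 (590.0 ± 41.7), KRT8 (566 ± 32.05) and KRT18 (485 ± 34.5) led their list of 19, of which 18 reached 1 TPM. The median log2 difference of that list was -0.06 with all samples and 0.01 without NT replicate 2. Genes targeted by prostate cancer therapies were abundant, with STEAP1 (582 ± 28.5) and PSCA (519.6 ± 52.9) TPM. Among driver genes the ETS factor ETV1 stood at 159 ± 16.1 TPM (169, 127 and 160.1 TPM in NT and 164, 164 and 169.6 in KD1) and MYC at 60.4 ± 1.54. ERG, the ETS factor often joined to TMPRSS2 in prostate tumours, had no count in any of the 6 samples. That allows up to 0.0781 to 0.125 CPM per sample (3 counts, counting error only, counts taken as independent). If both ends of a read pair were counted, as is inferred for these files, the limit is higher.

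Some defining markers of other cell types were near 0, while other members of their lists were expressed. The basal-cell factor TP63 had 5 counts in the 6 samples together, the leukocyte antigen PTPRC 10 and the endothelial PECAM1 6. The summed level of 14 immune markers was 1.80 to 3.73 TPM in NT and 1.65 to 1.77 TPM in KD1, and none reached 1 TPM in all samples. Of 15 neuroendocrine markers 3 did so, with INSM1 the highest at 4.26 ± 0.573 TPM, and CHGA had 62 counts. Of 14 basal markers 6 reached 1 TPM in all 6 samples. The basal list summed to 243 to 292 TPM in NT and 233 to 252 TPM in KD1, most of it from SFN (162 ± 12.9) and ITGB4 (75.7 ± 7.69), which are not restricted to basal cells. The endothelial list summed to 48.2 to 53.8 TPM in NT and 43.2 to 52.8 TPM in KD1, almost all from EGFL7 (35.7 ± 3.44) and ESAM (14.2 ± 1.15), with CDH5 and KDR at 0. Of 11 mesenchymal markers 2 reached 1 TPM in all 6 samples. Among mesenchymal genes FN1 (342 ± 21.03) and TWIST1 (49.4 ± 4.76) were expressed, and COL1A1 was at 1.72 ± 0.285 TPM. In bulk RNA, fewer cells of a type and less RNA per cell cannot be told apart. One antigen-presentation gene stood out: HLA-DRA, a class II chain, was at 387, 409.8 and 364 TPM in NT and 379, 391 and 374 in KD1, while its chaperone CD74 was at 0.193 ± 0.191, the class II regulator CIITA at 0.0724 ± 0.0274 and HLA-DRB1 at 0 counts.

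Receptors were expressed at moderate levels. Of 48 nuclear receptors 29 reached 1 TPM in every sample. NR4A1, an orphan receptor induced as an immediate early gene, led at 611 ± 28.6 TPM, before NR2F6 (196 ± 12.3), ESRRA (129 ± 6.44) and PPARD (99.2 ± 6.57). The glucocorticoid receptor NR3C1 was at 26.4, 16.3 and 24.7 TPM in NT and 25.1, 23.96 and 23.00 in KD1, with NT replicate 2 the lowest, and the vitamin D receptor VDR at 40.4 ± 2.16. ESR1 had no count, which again allows up to 0.0781 to 0.125 CPM per sample if counts are independent, and PGR had 3 counts. Among 58 receptor tyrosine kinases 27 reached 1 TPM in every sample, led by ERBB2 (189 ± 11.4), DDR1 (179 ± 10.8), ERBB3 (168 ± 3.26), IGF1R (138 ± 5.00) and EPHB4 (110.1 ± 7.57), while EGFR was at 36.5 ± 2.72 and MET at 0.416 ± 0.234. ERBB2 differed by -0.10 (95% interval -0.23 to 0.03) on the log2 scale and by 0.00 (-0.08 to 0.08) without NT replicate 2. Among G protein-coupled receptors the prostaglandin receptor PTGER4 was at 59.2, 61.1 and 60.7 TPM in NT and 57.3, 62.2 and 65.6 in KD1. LTBR (157 ± 4.41) led the cytokine and death receptors, ACVR1B (60.6 ± 3.09) the TGF-beta superfamily, FZD6 (135 ± 12.4) the Wnt and Notch receptors and ITGB4 the integrins. Of the nuclear receptors 35 were tested, with 0 higher and 1 lower at an unadjusted p under 0.05, and of the receptor tyrosine kinases 39, also with 0 and 1. None of the 21 G protein-coupled receptors tested had an unadjusted p under 0.05. The median log2 difference was -0.02 for nuclear receptors, -0.05 for receptor tyrosine kinases and -0.01 for the G protein-coupled receptors, and edgeR called none of these genes.

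All 15 genes of de novo pyrimidine synthesis were expressed. DHODH was low among them, at 6.09 ± 0.782 TPM over the 6 samples, and DHODH lay below CAD (57.2 ± 5.51) and UMPS (14.2 ± 0.911) in every sample. CMPK1, which phosphorylates UMP and CMP, stood at 154, 100.3 and 182 TPM in NT and 154, 154 and 157 in KD1, with NT replicate 2 the lowest. The ribonucleotide reductase subunit RRM2B was at 148 ± 27.5, its S-phase counterpart RRM2 at 4.58 ± 0.498 and thymidylate synthase TYMS at 11.6 ± 1.37, though 47.9% of TYMS exon bases overlap another gene. CAD was counted at 115, 148 and 113 CPM in NT and 122, 109.5 and 109 in KD1. NT replicate 2 was the highest and the other 5 samples were close together. CAD differed by -0.15 (95% interval -0.32 to 0.02) on the log2 scale and by -0.01 (-0.12 to 0.10) without NT replicate 2. UMPS differed by -0.07 (95% interval -0.24 to 0.10) and by -0.11 (-0.28 to 0.07). None of the 15 genes had an unadjusted p under 0.05 with all samples, and the median log2 difference was 0.01. For salvage and uptake, the uridine-cytidine kinases UCK1 (93.8 ± 5.14) and UCK2 (23.6 ± 1.89) and the nucleoside transporters SLC29A2 (53.2 ± 3.39) and SLC29A1 (32.8 ± 4.13) were expressed, and cytidine deaminase CDA had 36 counts. UCK2 differed by -0.17 (95% interval -0.32 to -0.02), at an unadjusted p of 0.0299 (edgeR adjusted p = 0.794). The salvage and uptake list had 1 gene higher and 1 lower at that p among 15 tested, and 0 and 1 of 16 without NT replicate 2.

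The other enzymes that reduce ubiquinone included SDHC (153 ± 8.87), SDHB (102 ± 8.35), SQOR (29.9 ± 2.88), ETFDH (13.2 ± 1.54) and GPD2 (9.23 ± 0.739) TPM, and PRODH had 14 counts. Their list had 1 gene higher and 0 lower at an unadjusted p under 0.05 among 10 tested. In glycolysis, GAPDH was at 1171 ± 78.4, HK2 at 123 ± 4.33, HK1 at 108 ± 6.44 and LDHA at 197 ± 3.01 TPM. LDHB, the second lactate dehydrogenase subunit, had no count in any sample (up to 0.0781 to 0.125 CPM per sample if counts are independent), and 33.4% of its exon bases overlap another gene. The cytosolic malic enzyme ME1 had 1 count. In the citrate cycle IDH1 was at 346 ± 15.02, the pyruvate carrier subunit MPC2 at 434 ± 42.96 and citrate synthase CS at 112 ± 4.03. Glycolysis had 0 genes higher and 3 lower at an unadjusted p under 0.05 of 19 tested, with a median of -0.07, and the citrate cycle 1 and 0 of 28, with a median of -0.02. These medians were -0.01 and 0.03 without NT replicate 2. The glycolysis count was then 1 higher and 0 lower, against 0 and 7 without NT replicate 1 and 0 and 6 without NT replicate 3. The citrate cycle count was 0 and 0 without NT replicate 2, 6 and 5 without NT replicate 1 and 2 and 3 without NT replicate 3. Over all tested genes, an unadjusted p under 0.05 was found for 1185 of 19373 with all samples and 1174 of 20065 without NT replicate 2. The number was 2559 of 20052 without NT replicate 1 and 2169 of 20325 without NT replicate 3.

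Nuclear genes of the respiratory chain were expressed without exception in the lists examined, which held 37 genes of complex I, 21 of complexes III and IV and 15 of ATP synthase. Leading members were NDUFS5 (507 ± 66.6), CYC1 (535 ± 37.7) and ATP5F1B (1210.0 ± 48.3) TPM. Complex I had 0 genes higher and 4 lower at an unadjusted p under 0.05, and 2 and 0 without NT replicate 2. NDUFB5, a complex I accessory subunit, was counted at 24.4, 10.05 and 29.4 CPM in NT and 27.6, 24.8 and 26.3 in KD1. NT replicate 2 was the only low sample, and the log2 difference of 0.31 became -0.03 without it.

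The 13 mRNAs of the mitochondrial genome had a median difference that rested on 1 NT sample. MT-CO2 stood at 20302, 20666 and 14460.3 TPM in NT and 19716, 20289.7 and 19322 in KD1, and MT-ND4 at 15795, 15053 and 11907 TPM in NT and 15584, 16132 and 15508 in KD1. In both, NT replicate 3 was below the other 5. Mitochondrial genes took 3.42%, 3.37% and 2.59% of counts in NT replicates 1 to 3 and 3.41%, 3.43% and 3.42% in KD1. The median log2 difference of the list was 0.13, with 4 genes higher and 0 lower at an unadjusted p under 0.05. It was 0.20 without NT replicate 1 (9 higher), 0.21 without NT replicate 2 (11 higher) and 0.02 without NT replicate 3 (0 higher, 1 lower). No member was called in edgeR, and MT-CO1 had an adjusted p of 0.182 without NT replicate 2. The counts over all tested genes in these settings are those given with glycolysis.

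The 80 cytosolic ribosomal protein genes all passed 1 TPM in every sample. Their summed level was 59669 to 66484 TPM in NT and 59311 to 61535 TPM in KD1. The median log2 difference was -0.07, with 1 higher and 9 lower at an unadjusted p under 0.05. It was 0.02 without NT replicate 2, with 10 higher and 3 lower. It was -0.11 without NT replicate 1 (0 and 27) and -0.09 without NT replicate 3 (0 and 23). The sign of this list's median therefore depended on NT replicate 2. Over all tested genes, an unadjusted p under 0.05 was also more frequent without NT replicate 1 (2559 of 20052) and without NT replicate 3 (2169 of 20325). With all samples it was found for 1185 of 19373.

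Biosynthetic and stress pathways were expressed at high levels in both groups. PSAT1 (1379.7 ± 104) and PHGDH (341 ± 23.2), which make serine, stood above SHMT2 (206 ± 16.4) and MTHFD2 (129.7 ± 8.13), which move its carbon into folate. The methionine cycle was led by AHCY (222 ± 9.64), MAT2A (219.6 ± 6.18) and GAMT (141 ± 11.9), with none of 20 tested genes at an unadjusted p under 0.05. GNMT, a glycine methyltransferase, was counted at 6.43, 12.4 and 6.55 CPM in NT and 7.68, 7.07 and 6.85 in KD1, again with NT replicate 2 apart. Lipid synthesis showed FASN (819 ± 62.3) and ACACA (293 ± 10.6). Polyamine synthesis, a known output of prostate epithelium, showed ODC1 (915 ± 37.8) and AMD1 (616 ± 65.03). The amino acid carriers SLC7A5 (1120.3 ± 47.3) and SLC1A5 (871 ± 34.1) were abundant as well. The stress factor ATF4 was at 1224, 1276 and 1249 TPM in NT and 1218, 1177 and 1204 in KD1, its targets ATF3 at 525 ± 8.10 and TRIB3 at 396 ± 16.4, and the chaperones CALR at 1642 ± 90.9 and HSP90AB1 at 2745 ± 65.5.

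Immediate early genes were among the most abundant transcripts of both groups. EGR1 (chromosome 5, 138465479 to 138469303) stood at 3504, 3519 and 3047 TPM in NT and 3437, 3497 and 3475 in KD1, FOS at 2966, 3069 and 3106 TPM in NT and 3017, 3009 and 3072 in KD1 and JUN at 2184 ± 62.4. NT replicate 3 was the lowest sample for EGR1, and the groups overlapped for both EGR1 and FOS. None of the 21 tested immediate early genes had an unadjusted p under 0.05, and 3 were higher at that p without NT replicate 2, none of them called. EGR1 then differed by 0.11 (0.03 to 0.19), with an adjusted p of 0.754 in edgeR. Among cell-cycle genes, PCNA stood at 219 ± 11.7, CCNB1 at 29.5 ± 2.37, TOP2A at 24.9 ± 2.27 and MKI67 at 6.83 ± 0.54 TPM. In DNA repair, XRCC6 (399 ± 7.85), APEX1 (320.4 ± 6.90) and PARP1 (68.4 ± 1.86) stood above MSH6 (21.8 ± 1.55) and BRCA1 (3.74 ± 0.555). The 38 repair genes had 4 higher and 1 lower at an unadjusted p under 0.05, a median of -0.01 and no call, where 1185 of all 19373 genes had such a p. Leaving out NT replicate 2 made it 1 higher and 1 lower.

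Across all genes, edgeR's quasi-likelihood test fitted on all 12 samples called 0 of 19373 genes (0%) at an adjusted p under 0.05. An unadjusted p under 0.05 was found for 1185 genes, 521 higher and 664 lower in KD1, where 969 make up 5% of the tests. That number moved with the NT samples, to 2559 without NT replicate 1 and 2169 without NT replicate 3, and edgeR called 0 genes in both. On the 6 samples alone it was 534, where 890 make up 5%. The smallest adjusted p was 0.794. DESeq2 also called 0, with 1397 genes at an unadjusted p under 0.05. With NT replicate 2 left out, edgeR called 0 of 20065 genes (0%), with 1174 at an unadjusted p under 0.05 and a smallest adjusted p of 0.0723, for PWP2. Of the 11117 genes whose mean reached 5 CPM, 5225 were fitted higher and 5892 lower, or 5549 and 5568 without NT replicate 2. The CPM of the 2 groups did not overlap for 990 of these genes, 445 above and 545 below. Without NT replicate 2 that number was 2237, with 1099 above and 1138 below. A smaller group separates more easily by chance, so neither number nor the rise between them is read as a result. In both fits edgeR called 0% of all genes. The same test on KD2 against KD1, which shares the KD1 samples, called 6868 of 19373 genes (35.5%), 1739 of them at a difference of at least 2-fold.

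**Figure D2:**
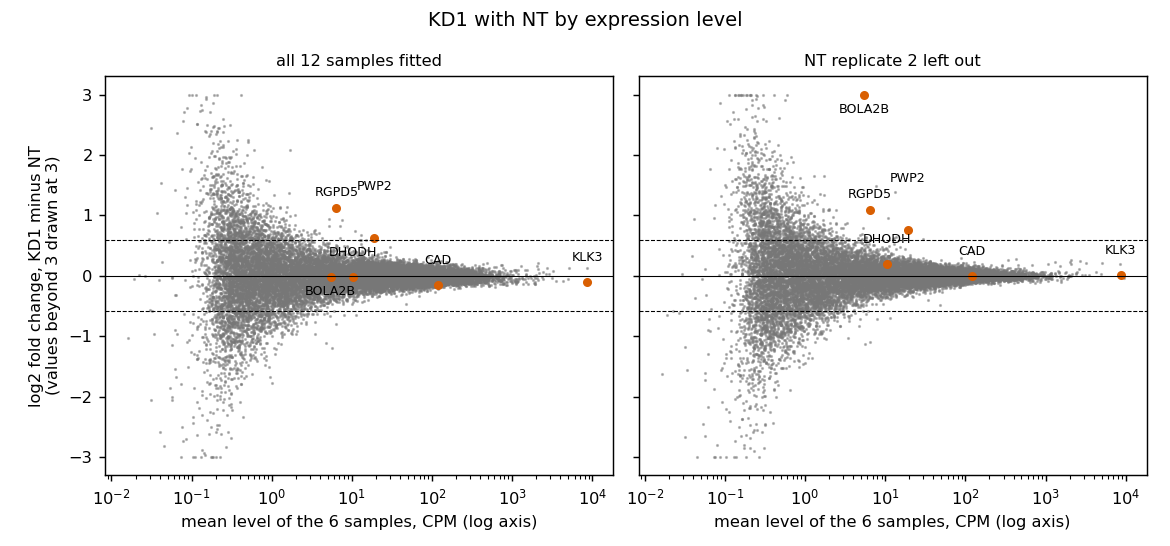
Log2 difference of KD1 from NT for each tested gene against its mean CPM (log axis), with all 12 samples in the fit and without NT replicate 2, dashed lines at 1.5-fold and values beyond 3 drawn at 3. The cloud narrows as the level rises, and the orange named genes with large differences, RGPD5 and PWP2 among them, lie at low levels.

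The limits on a KD1 change were set by the intervals. For 99.8% of the 11117 genes at 5 CPM or more the 95% interval lay inside a 2-fold change in either direction, for 96.7% inside 1.5-fold and for 67.7% within 25% either way (a ratio of at most 25% above 1 or its inverse). These shares were 99.8%, 96.6% and 74.5% without NT replicate 2, and 99.8%, 95.6% and 58.3% on the 6 samples alone. Each fit estimates 1 spread per gene for all its groups, although NT spread more widely than KD1. The smallest change at which a gene would be the only one called had a median of 1.46-fold (10th to 90th percentile 1.30 to 1.93). The p is adjusted over all tests, so a smaller change would do if other genes were called too. This smallest change had a median of 1.35-fold without NT replicate 2 and 1.67-fold on the 6 samples alone. At 500 CPM or more (212 genes) it ran from 1.21-fold to 1.36-fold (10th to 90th percentile), and its median at 100 to 500 CPM (2278 genes) was 1.31-fold. At 20 to 100 CPM (5493 genes) it was 1.45-fold and at 5 to 20 CPM (3134 genes) 1.82-fold. It rose to 3.50-fold at 1 to 5 CPM (3406 genes) and 18.01-fold under 1 CPM (4850 genes). The share of genes with an interval within 25% either way ran from 97.6% at 500 CPM or more through 96.2%, 80.1% and 23% to 0% at 1 to 5 CPM. Leaving out NT replicate 2 raised it to 99.8%, 91.5% and 24.8% in the bins from 100 to 500 down to 5 to 20 CPM. As the only gene called, DHODH would have needed a 1.87-fold change, CAD 1.43-fold and KLK3 1.29-fold.

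**Figure D3:**
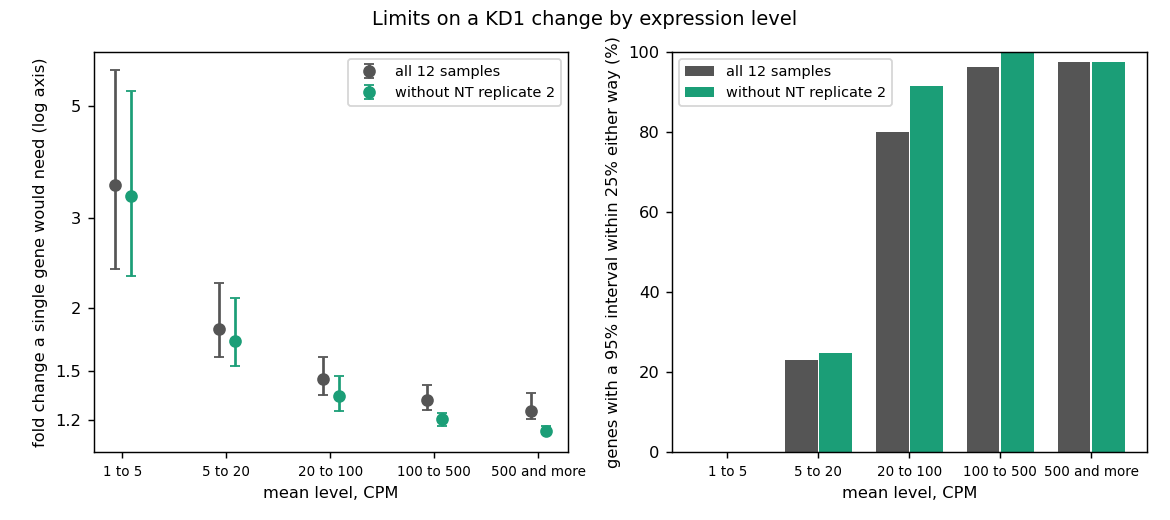
Left, median fold change needed for a single gene to be called by level in CPM, with bars from the 10th to the 90th percentile of genes; right, percent of genes whose 95% interval lies within 25% either way. Grey is the fit on all 12 samples and green the fit without NT replicate 2, which holds a larger share of genes within 25% from 5 to 500 CPM.

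The spread was wider in NT than in KD1. The biological coefficient of variation in edgeR was 15.7% for NT, 6.62% for KD1 and 8.56% for NT without replicate 2. The SD of log2 deviations from the other samples of the group was 0.281 for NT replicate 2, 0.186 and 0.198 for NT replicates 1 and 3, and 0.131 to 0.145 for KD1. NT replicate 2 had 75 genes more than 1.5-fold above and 280 below the other NT samples. Pairs of samples from different groups without NT replicate 2 had an SD of log2 ratios of 0.146 to 0.186 (6 pairs), and pairs within a group 0.154 to 0.175 (4 pairs). Pairs with NT replicate 2 had 0.265 to 0.294 between groups and 0.289 to 0.299 within NT. Without NT replicate 2 the range between groups thus overlapped the range within groups. The chi-square per degree of freedom between libraries was 3.72 to 28.9 over all pairs, so no pair agreed within the noise of independent counts. In limma-voom with sample weights NT replicate 2 was weighted 0.191 and the other 11 samples 0.871 to 1.44.

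NT replicate 2 departed with the base composition of transcripts. Genes were put in 5 equal groups by GC content. In the group of lowest GC (27.8% to 40.7%) its median log2 deviation from the other NT samples was -0.31, and it was -0.12, 0.04, 0.17 and 0.24 in the groups that followed, the last at 57.9% to 74.7% GC. The KD1 samples stayed within -0.04 to 0.04. By transcript length the same sample ran from 0.13 in the shortest of 5 equal groups to -0.09 in the longest. GC content was known for 10981 of the 11117 genes. TRDMT1, a tRNA methyltransferase, and SLC4A3, an anion exchanger, serve as examples, the first from the 10 lowest and the second from the 10 highest genes of NT replicate 2, at a transcript GC of 36.01% and 64.23%. TRDMT1 was counted at 6.30, 2.51 and 5.75 CPM in NT and 6.19, 6.03 and 5.57 in KD1, and SLC4A3 at 6.06, 10.2 and 5.30 CPM in NT and 5.45, 6.65 and 7.31 in KD1. A 90-base coding stretch of each is printed with G and C in capitals (coding bases 541 to 630 and 1843 to 1932 of the GENCODE v29 transcripts), at 33.3% and 61.1% GC.
TRDMT1: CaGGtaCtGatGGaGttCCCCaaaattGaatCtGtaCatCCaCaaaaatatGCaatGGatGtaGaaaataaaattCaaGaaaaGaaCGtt
SLC4A3: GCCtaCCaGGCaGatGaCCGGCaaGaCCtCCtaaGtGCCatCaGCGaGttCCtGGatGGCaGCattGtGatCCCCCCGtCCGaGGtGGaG
The relation had exceptions. ZIC5, with a transcript GC of 49.7%, was among the 10 lowest in NT replicate 2, at 16.9, 8.16 and 17.6 CPM in NT and 14.1, 15.9 and 15.9 in KD1. CKS2, with a transcript GC of 41.4%, was among the 10 highest, at 10.7, 16.7 and 6.86 CPM in NT and 13.3, 12.8 and 14.4 in KD1. Other genes among the 10 lowest were SLC16A10, SLC33A1, IFT80 and GCSH, and among the 10 highest MT1G, ITGAE, PDE4A and DLG4. The part of GC content in the spread of NT was not tested.

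**Figure D4:**
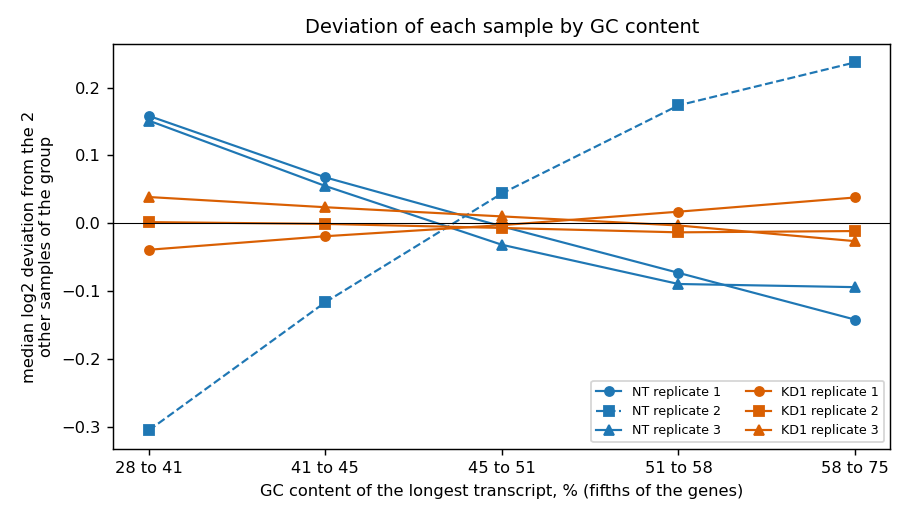
Median log2 deviation of each sample from the other 2 samples of its group in 5 equal groups of genes by transcript GC percent; NT replicate 2 is dashed. It climbs from -0.31 to 0.24, NT replicates 1 and 3, which have NT replicate 2 as a mate, run the other way, and KD1 stays near 0.

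The 10 genes of smallest p at 5 CPM or more include none that was called. RGPD5 (chromosome 2, 109792758 to 109857705), a RanBP2-like repeat gene, was counted at 3.54, 3.80 and 4.80 CPM in NT and 6.51, 9.27 and 10.6 in KD1. All KD1 samples were above all NT samples. The groups were separate in this way for 990 of the 11117 genes at this level, 445 above and 545 below. Summed with its copy RGPD6, the groups overlapped, with NT replicate 3 at 8.46 CPM and KD1 replicate 1 at 7.82. The log2 difference of RGPD5 alone was 1.13 ± 0.25 (SE; adjusted p = 0.794 in edgeR, 0.331 without NT replicate 2). PWP2, a ribosome biogenesis factor, was counted at 16.2, 17.7 and 11.1 CPM in NT and 27.1, 17.5 and 24.5 in KD1, and the groups overlapped. PWP2 differed by 0.62 ± 0.15 with all samples and by 0.75 ± 0.14 without NT replicate 2 (adjusted p = 0.0723 in edgeR), and 81.2% of its 100-base windows recur in another annotated gene. COA4, a cytochrome oxidase assembly factor with no such window, was counted at 54.9, 57.2 and 57.7 CPM in NT and 46.8, 46.5 and 46.2 in KD1. All KD1 samples lay below all NT samples, at -0.28 ± 0.07 (log2, SE). The remaining 7 were GOLGA8B (0.31 ± 0.08), LANCL3 (0.39 ± 0.10), APH1B (0.34 ± 0.09), SMARCE1 (0.32 ± 0.09), RALGAPA1P1 (-0.68 ± 0.18), RAB25 (-0.26 ± 0.07) and ATP2C2 (-0.26 ± 0.07), each with an edgeR adjusted p of 0.794. Windows that recur in another gene made up 50.8% for GOLGA8B, 57.4% for SMARCE1 and 56.8% for the pseudogene RALGAPA1P1. The share was 1.95% for LANCL3, and APH1B, RAB25 and ATP2C2 had no such window. The fit restricted to NT and KD1 without NT replicate 2 called 1 of 18269 genes, TMEM238, which fell by 0.48 on the log2 scale (adjusted p = 0.0277 in edgeR). In edgeR its difference was -0.46 with all 12 samples (adjusted p = 0.794), -0.48 without NT replicate 2 alone (adjusted p = 0.491) and -0.45 in the 6 samples (adjusted p = 0.983), so the call rests on both restrictions.

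Genes that share sequence with copies were among those with the widest intervals. Of the 11117 genes at 5 CPM or more, 20 had an interval that reached past 2-fold, and they include the pseudogenes SPCS2P4, MTX1P1, PTGES3P1, SNRPGP10 and TCEA1P2 and the copied genes RGPD5, MAGEA2, BOLA2B, U2AF1 and U2AF1L5, named after their values were seen. BOLA2B was counted at 0.155, 15.9 and 0.381 CPM in NT and 16.03, 0.25 and 0.0521 in KD1, with 1 high sample in each group, while its copy BOLA2 had 0 in all 6 samples. Every 100-base window of the BOLA2B transcript recurs in BOLA2. U2AF1, a splicing factor subunit, was counted at 5.22, 17.9 and 7.09 CPM in NT and 36.7, 6.24 and 5.41 in KD1, and U2AF1L5 at 6.96, 2.74 and 25.8 CPM in NT and 3.50, 34.4 and 6.01 in KD1, with 87.3% of windows shared. RGPD6 was counted at 0.963, 3.07 and 3.66 CPM in NT and 1.31, 4.41 and 6.51 in KD1, and all RGPD5 windows recur in it. The first 120 coding bases of RGPD5 and RGPD6 are the same and are printed once, since a read from this stretch matches both genes.
RGPD5 and RGPD6: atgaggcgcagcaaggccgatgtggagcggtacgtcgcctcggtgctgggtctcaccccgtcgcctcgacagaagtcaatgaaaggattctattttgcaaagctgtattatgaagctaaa
SMN1, with 86.1% of windows in SMN2, was counted at 54.6, 20.5 and 32.7 CPM in NT and 22.7, 38.1 and 38.9 in KD1, and EIF3C shared 95.1% with EIF3CL. No option to keep reads placed more than once was given for the counting. BOLA2B and RGPD5 still held counts although all their windows recur in a copy, and the counts of such genes are uncertain. DHODH, CAD, UMPS, KLK3, GDF15 and EGR1 had no 100-base window in another gene. The part of read placement in these differences was not tested.

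**Figure D5:**
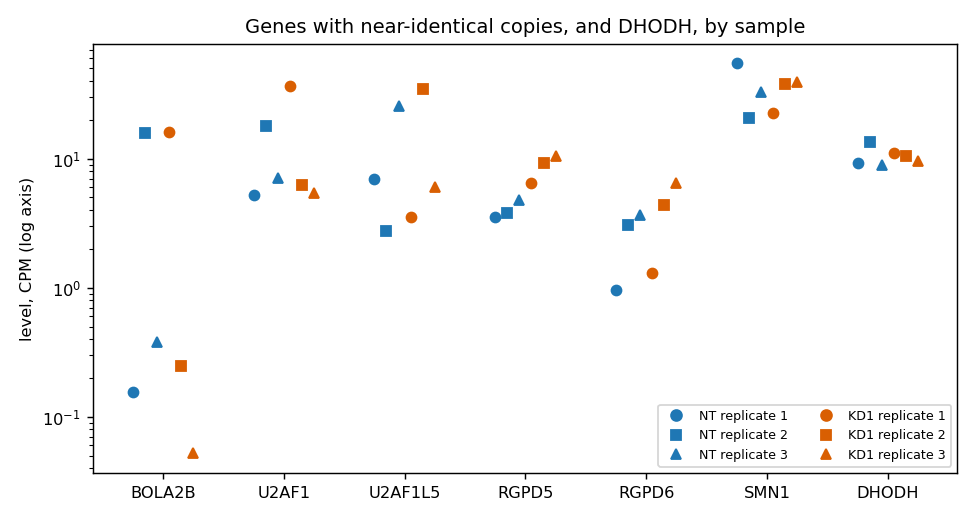
CPM of genes with near-identical copies and of DHODH in each of the 6 samples. BOLA2B, U2AF1 and U2AF1L5 each jump in single samples of both groups, whereas DHODH stays between 8.95 and 13.4 CPM.

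Genes that overlap others bound the baseline from below. Reads over exons of 2 genes were taken as not counted, and 3.88% of tested genes share at least 50% of their exon bases with another gene. EEF1G, a translation factor with 99.7% of exon bases shared, had no count. MALAT1, an abundant nuclear RNA in most cells, was listed at 6.99 ± 1.92 TPM with 83.7% shared, ALDOA at 3.50 ± 0.222 with 54.2% and the mitotic gene NUSAP1 at 0.0666 ± 0.0627 with 86.8%. These 4 levels were chosen after their values were seen and are not read as low expression.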

How the data were processed

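Poly-A RNA-seq was analysed for 3 NT and 3 KD1 samples of MDA-PCa-2b cells, with the 3 KD2 and 3 KDR samples entering the shared fit. The authors deposited raw counts per gene, made with featureCounts 1.6.4 on Ensembl release 111 (GRCh38), per the file headers; FastQC, cutadapt and HISAT2 are named in the submitters' processing notes. The headers give no option for strand, pairs or multiple placements. From this it is inferred that each read end was counted, but not reads placed more than once or over exons of 2 genes.

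Counts of 63241 genes were filtered with filterByExpr, scaled by TMM and tested with the quasi-likelihood test of edgeR 4.0.16 in R 4.3.3, with an adjusted p (Benjamini-Hochberg) under 0.05 as a call. The fit was repeated without NT replicate 2. Intervals are 95% Wald intervals from the moderated dispersion. TPM used the exon lengths in the files, and log2 deviations added 0.5 to CPM. The steps were tested on simulated data. These had the same spread in every sample and no trend with GC content, so they do not cover the deviation of NT replicate 2. GC content and shared 100-base windows came from GENCODE v29 transcripts, promoters from RefSeq. DESeq2 1.42.0, limma 3.58.1 and other filters, scalings and GC offsets (chosen after seeing the data) were alternatives.

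The comparison and the 58 gene lists (1338 of 1339 members matched) were chosen with earlier results of these data known. Named genes were DHODH, CAD and UMPS; the 20 protein-coding genes of highest TPM; the 6 highest members of each list with defining markers; the 10 smallest p and 10 largest SE; and the 10 highest and lowest in NT replicate 2. List members named beyond this rule were chosen after their values were seen. Some genes are not reported here.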

Additional observations from a re-analysis of the deposited data

How the results depend on the processing

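The count of genes called in KD1 against NT stayed at 0 under DESeq2, 2 other scalings, a filter at 1 CPM, the 6 samples alone, limma-voom, GC offsets and leaving out any 1 of the 6 samples (0 to 0). With no filter on low counts it was 23, and with only NT and KD1 and without NT replicate 2 it was 1. Without NT replicate 2 it was 0, and 37 with no filter, 1 with only NT and KD1 and 0 to 76 when 1 further sample was left out (76 without NT replicate 1, 1 without NT replicate 3, 7 without KD1 replicate 2 and 2 without KD1 replicate 3), alternatives added after seeing the data. Leaving out NT replicate 1 or 3 there leaves 1 NT sample, which is assumed to vary like the other groups. The cause was not tested. Residual correlations of same-numbered NT and KD1 samples were -0.19, -0.09 and 0.07. With so few samples a group, these values cannot decide whether replicate numbers pair the samples. With replicate as a block 0 genes were called, the smallest adjusted p in edgeR was 0.0675 and the smallest callable change was 1.47-fold. Without NT replicate 2 the replicate block called 4. KD2 against KD1 kept 6754 to 8219 calls over its alternatives. The share of genes with an interval inside 1.5-fold ran from 92.9% to 97.2%, that within 25% either way from 51.7% to 77%, and the smallest callable change from 1.34-fold to 1.67-fold. The log2 difference of DHODH ran from -0.13 to 0.19 when 1 sample was left out, and turned positive at 0.12 in limma-voom with sample weights, 0.19 without NT replicate 2, 0.19 with only NT and KD1, without NT replicate 2, 0.02 with GC offsets and 0.03 without KD1 replicate 3. With no filter RGPD5 (1.14), PWP2 (0.64) and GOLGA8B (0.32) passed the threshold. Leaving mitochondrial genes out of the TPM total put DHODH at 6.99 and KLK3 at 8645. Median interval widths were largest for genes under 5 CPM, and depth was not varied.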

Other observations

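The highest TPM of any gene belonged to MIR196A2, a microRNA gene with an exon length of 110 bases, at a mean of 24588 TPM over the 6 samples. It is no protein-coding gene and stands outside the ranking given above. In RNA selected for poly-A tails this value is not read as a level of the microRNA, and the source of the reads was not tested. The comparison is limited by 3 samples a group, of which NT replicate 2 differs from its mates by GC content. It is also limited by the level of DHODH itself, which as the only gene called would have needed a 1.87-fold change. An interval within 25% either way bounds the RNA level only, and the counts say nothing about DHODH protein.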
